A study of Mus musculus with 20 samples.

Results

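Mouse embryonic stem cells carrying a short hairpin RNA against Braveheart, a long noncoding RNA, were compared with cells carrying a scrambled hairpin after 9 days of differentiation towards heart muscle. The comparison used 3 of the 20 RNA sequencing libraries of the series, picked by their labels: 1 with the scrambled hairpin, called the control here, 1 with hairpin A and 1 with hairpin B. They were the last day of a time course of 12 libraries, with 1 library for each of the 3 hairpins at days 0, 3, 6 and 9. The sources used here do not say whether libraries of different days came from the same cultures. The question was how depletion of Braveheart alters gene expression while these cells differentiate. All 3 libraries came from E14 embryonic stem cells of strain 129/Ola that had been transduced with lentiviral particles from the pLKO.1 vector and selected with puromycin, so the scrambled control carried the vector and went through selection too. For each sample the labels describe both the formation of embryoid bodies and a directed protocol with Activin A, BMP4, VEGF, basic FGF and FGF10, and the sources used here do not say which of them a library came from. Nothing in the labels says that the hairpin libraries were separate cultures of 1 treatment, and the hairpins differ in sequence, so a p-value here reflects no more than how these samples spread. Braveheart's own level was not analysed here.

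Heart muscle arises from mesoderm, in which progenitor regulators such as Hand2, Mef2c and Nkx2-5 precede the genes of the sarcomere. In the sarcomere, thin filaments of actin, tropomyosin and troponin slide along thick filaments of myosin, and both are tied to Z-discs and driven by calcium release. Blood, endothelium and smooth muscle arise from neighbouring mesoderm and commonly appear beside heart muscle when embryonic stem cells differentiate. Braveheart is known in mouse embryonic stem cells for its part in the step from mesoderm to cardiac progenitors.

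Values are FPKM, fragments scaled to transcript length and to library size, as the authors deposited them. Of 22102 loci in the table, 13858 spanned at least 300 bp and had at least 1 FPKM in at least 2 of the 12 libraries, and these were tested. Differences are given in log2(FPKM + 1), where the added 1 shrinks those of low genes. The step size of low values implied depths of about 8760000 reads in the control, 6800000 with hairpin A and 11040000 with hairpin B, so that 3 reads on 1 kb corresponded to 0.342, 0.441 and 0.272 FPKM. These floors cover counting error only, and a longer transcript has more reads at the same FPKM.

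The labelled direction of differentiation was checked against defining markers in the control. Cardiomyocyte markers read 140 FPKM for Actc1, 138 for Myl7, 55.5 for Tnnt2 and 31.1 for Myh6, while Nkx2-5 stood at 0.678, close to the floor. Markers of other cell types were detected in that library as well: the embryonic globin Hbb-bh1 read 142 FPKM, the smooth muscle actin Acta2 88.4, the pluripotency factor Pou5f1 98.8, Afp, a gene of yolk sac and fetal liver, 21.1, the neural gene Sox1 12.0 and the endothelial cadherin Cdh5 8.52. Of 23 endoderm and yolk sac genes listed, 19 were tested. The endoderm marker Alb, not among them, read 0.0487 FPKM in the control, under 3 reads on 1 kb. Of the macrophage markers, Ptprc was listed at 0 in all 3 libraries, Tyrobp read 0.740 FPKM in the control and was listed at 0 with both hairpins, and Csf1r read 0.366, 0.698 and 0.894. None of these markers was among the 3 of 10 genes of the macrophage list that were tested. Summed over those 3 genes, levels were 10.4 FPKM in the control, 10.4 with hairpin A and 37.5 with hairpin B. Of 6 macrophage genes with values too low to be tested, 3 were below the control in both hairpins. These are bulk samples, in which fewer cells of a type and less RNA per cell cannot be told apart.

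The hairpin B library stood apart from the others. Its median absolute log2 difference from the control was 0.50 over all loci, against 0.14 for hairpin A. The median absolute difference between the hairpins was 0.24 at day 0, 0.16 at day 3, 0.31 at day 6 and 0.50 at day 9. Summed over the 27 genes of the pluripotency list, levels were 1137 FPKM in the control, 1349 with hairpin A and 9351 with hairpin B. Each result is therefore given for each hairpin, and both hairpins were set against the same scrambled library.

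At day 9 the loci that were lower in both hairpins included genes of the heart muscle sarcomere, embryonic globins and genes of endothelium and mesenchyme. A size rule took loci that differed from the control by 2-fold or more, in (FPKM + 1), in 1 direction for both hairpins. By that rule 65 loci (63 gene names) were lower, which is 0.469% of the loci tested, and 10 were higher, 0.0722%. Of the 65, 36 were on at least 1 of the gene lists, which held 443 of the loci tested. The lists were chosen with earlier results of these data known, so this overlap is no independent evidence. With the shared loci included, hairpin A was 2-fold lower at 105 loci (0.758%) and 2-fold higher at 26 (0.188%). Of the 105, 40 were not 2-fold lower with hairpin B, and of the 26, 16 were not 2-fold higher with it. Hairpin B, counted in the same way, was 2-fold lower at 1848 loci (13.3%) and 2-fold higher at 1353 (9.76%).

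No single locus passed a test across all loci. The mean of both hairpins was set against the control with limma, in a fit of the 12 libraries that took its spread from the hairpin pairs of all days. This test called 0 of 13858 loci (0.0%), with a smallest adjusted p of 0.875, and 186 loci had an unadjusted p under 0.05. Of the 65 loci lower by the size rule, 58 were among those 186. Both use the same 3 libraries of day 9, so this overlap is no separate support for the rule. The difference between day 9 and day 0 effects likewise gave 0 calls (0.0%) in limma, with 133 loci at an unadjusted p under 0.05. Without the filter on low values limma called 162 lower and 4 higher. Those calls included Cd72, at a mean log2 difference of -3.9 ± 0.23 (SE), and loci near 0 such as Hoxc5, at -0.050 ± 0.0056. Hoxc5 read 0.035 FPKM in the control and was listed at 0 with both hairpins. Fits with 1 hairpin as the only depleted library of day 9 set 1 library against 1, so their calls are not counted here. Their number depended on which hairpin was kept. The 2-fold counts also depend on the pseudocount: with 0.1 in place of 1 they were 147 lower and 67 higher.

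Among the loci tested, the 4 with the largest smaller drop of the hairpins were all sarcomere genes. Cd72, which is under the filter on low values, had a larger one, at log2 differences of -3.70 and -4.10. Actc1, the cardiac alpha actin of the thin filament (mm9 chromosome 2, positions 113873024-113878547), read 140 FPKM in the control, 15.4 with hairpin A and 4.30 with hairpin B. Both hairpin libraries were low, hairpin B the lower, with log2 differences of -3.10 and -4.73 and a mean of -3.92 ± 0.75 (SE of the limma fit; adjusted p = 0.875). Myl2, the regulatory light chain of ventricular myosin (chromosome 5, 122550988-122556863), read 15.8, 1.36 and 0.664 FPKM in the same order, a mean log2 difference of -3.09 ± 0.38 (SE; adjusted p = 0.875 by limma). Here the hairpins lay close together, at -2.84 and -3.34, and both were far below the control.

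These 4 genes were Actc1, Myl2, Tnni1 and Myh6, and their promoters are printed to show what sequence lies before genes that were low together. Each covers 250 bases before to 50 after the start site in RefSeq, 5′ to 3′ on the gene's strand. Actc1 is on the minus strand at chr2:114052826-114053125, Myl2 on the plus strand at chr5:122092474-122092773, Tnni1 on the plus strand at chr1:135799171-135799470 and Myh6 on the minus strand at chr14:54966558-54966857, all in build GRCm38.p6. Capitals mark matches on either strand to a CArG box (the site of serum response factor), a MEF2 box, the TATA box letters TATAAA, the M-CAT core CATTCC that TEAD factors read, the core AAGTG of NK homeodomain factors such as Nkx2-5, and the GATA site AGATAA. Lower case letters are the rest of each window.
Actc1: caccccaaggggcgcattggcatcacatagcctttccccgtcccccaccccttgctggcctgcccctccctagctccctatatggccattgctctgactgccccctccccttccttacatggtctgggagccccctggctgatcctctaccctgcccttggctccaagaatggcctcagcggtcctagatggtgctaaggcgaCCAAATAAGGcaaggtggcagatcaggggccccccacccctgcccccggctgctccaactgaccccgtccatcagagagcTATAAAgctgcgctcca
Myl2: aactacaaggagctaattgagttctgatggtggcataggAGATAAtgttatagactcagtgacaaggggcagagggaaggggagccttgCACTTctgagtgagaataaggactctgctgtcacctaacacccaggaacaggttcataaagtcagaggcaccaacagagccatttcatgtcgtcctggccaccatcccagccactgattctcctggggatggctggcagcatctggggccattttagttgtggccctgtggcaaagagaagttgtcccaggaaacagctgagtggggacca
Tnni1: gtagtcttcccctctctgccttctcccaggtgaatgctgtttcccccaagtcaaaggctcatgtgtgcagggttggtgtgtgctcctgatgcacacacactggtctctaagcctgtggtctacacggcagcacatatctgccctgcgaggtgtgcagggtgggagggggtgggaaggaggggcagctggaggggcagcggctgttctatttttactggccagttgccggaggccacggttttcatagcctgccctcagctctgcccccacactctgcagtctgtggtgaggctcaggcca
Myh6: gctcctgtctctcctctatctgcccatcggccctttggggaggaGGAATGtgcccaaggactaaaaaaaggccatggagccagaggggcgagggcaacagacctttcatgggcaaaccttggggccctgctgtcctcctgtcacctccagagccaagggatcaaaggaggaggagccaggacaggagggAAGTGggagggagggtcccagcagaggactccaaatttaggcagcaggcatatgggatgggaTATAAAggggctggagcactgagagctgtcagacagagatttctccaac
Actc1 held a CArG box from -47 to -38, counted from 0 at the start site, and TATAAA from 33 to 38. Myl2 held AGATAA from -211 to -206 and AAGTG on the opposite strand from -161 to -157. Myh6 held CATTCC on the opposite strand from -206 to -201, AAGTG from -61 to -57 and TATAAA from 1 to 6, and no motif searched was in the Tnni1 window. In Actc1 and Myh6 the TATAAA letters thus lay after the RefSeq start site. All positions depend on that site, and where transcription started in these cells was not measured. Myl2 and Tnni1 each have 2 entries in the table, of which the first was used. Over the 15 sarcomere and Z-disc genes that were 2-fold lower in both hairpins, a CArG box was in 4 promoters, against 1.63% of the 32851 promoters of the table. CATTCC was in 8 of the 15 (14.7% of all promoters), AAGTG in 8 (46.4%), AGATAA in 4 (11.2%), TATAAA in 3 (13.6%) and a MEF2 box in 1 (3.19%). A match is a description of letters, and nothing here measures binding.

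Thin filament genes differed by member. Of 10 tested, 9 were below the control in both hairpins, where 34.3% of all loci were. Of the same 10, 5 were 2-fold lower in both, where 0.469% of all loci were. Tnni1, the slow troponin I expressed in embryonic heart (chromosome 1, 137695997-137707566), read 53.9 FPKM in the control against 7.48 and 1.41 with hairpins A and B. Cardiac troponin T, Tnnt2, read 55.5, 9.40 and 1.29 FPKM, and both genes were thus lowest with hairpin B. Troponin C, Tnnc1, which binds calcium, read 36.4 FPKM against 12.1 and 2.57. Tmod1, which caps the pointed ends of actin, stood at 4.37, 1.22 and 0.572 FPKM. In contrast, the tropomyosin Tpm1 was the most abundant thin filament gene in every library, at 423, 323 and 265 FPKM, with less than a 2-fold difference. Tnni3, the troponin I of the mature heart, read 14.4, 5.63 and 10.3 FPKM and was 2-fold lower with hairpin A only by the size rule, and skeletal actin Acta1 read 14.7, 10.4 and 30.3 FPKM, above the control with hairpin B. The list's median log2 difference was -1.25 with hairpin A and -1.97 with hairpin B, where the medians over all loci were -0.03 and -0.10.

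Thick filament genes were lower over most of the list. Of 11 tested, 9 were 2-fold lower in both hairpins, where 0.469% of all loci were. The list median was -1.76 with hairpin A and -2.86 with hairpin B. The atrial light chain Myl7 (chromosome 11, 5796639-5798785) read 138, 33.7 and 3.14 FPKM in control, A and B libraries. Myl4, the other atrial light chain, read 66.9, 13.5 and 6.09 FPKM. The heavy chain Myh6 (chromosome 14, 55560757-55585444) read 31.1, 4.23 and 1.02 FPKM. All 3 genes were low with hairpin A and lower again with hairpin B. The ventricular light chain Myl3 stood at 27.1, 6.37 and 1.23 FPKM and the slow heavy chain Myh7 at 13.5, 4.38 and 0.997. Cardiac myosin binding protein C, Mybpc3, was at 5.47, 1.00 and 0.271 FPKM. For Smyd1, a methyltransferase that aids myosin assembly, the hairpins were nearly level at 2.56 and 2.25 FPKM, against 11.0 in the control. Myh6 and Myh7 are close paralogs, between which the counting could split reads. Myh7b was the exception above the control in hairpin B, at 1.31, 0.905 and 3.51 FPKM.

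Summed over the thick filament genes tested, levels were 320.7 FPKM in the control, 72.2 with hairpin A and 21.6 with hairpin B. For the thin filament the sums were 773.8, 404.7 and 334.7 FPKM, of which Tpm1 made up the larger share in every library. Of the 21 genes of both lists, 15 were 2-fold lower with hairpin A and 16 with hairpin B, where 0.758% and 13.3% of all loci were. The summed pluripotency level was 1349 FPKM with hairpin A and 9351 with hairpin B against 1137 in the control, and its part in the sarcomere values was not tested. The plot of contractile genes by library shows all 21.

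**Figure D1:**
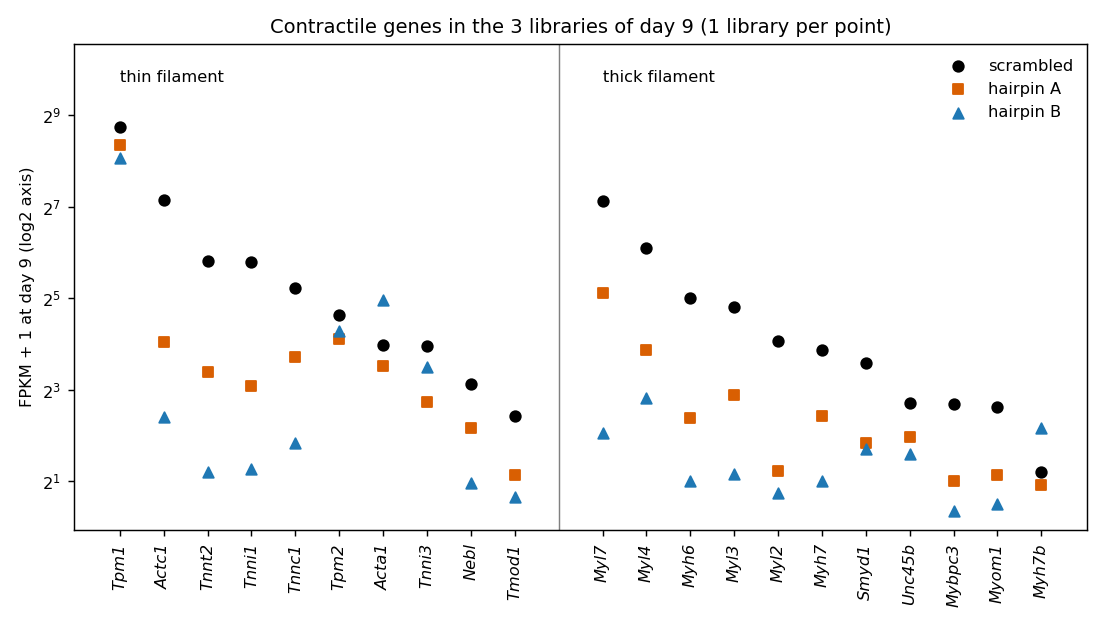
FPKM + 1 at day 9 on a log2 axis for the 21 thin and thick filament genes tested, 1 point per library, with genes ordered by the control (scrambled, black) within each list. In 19 of 21 genes both hairpin points lie below the scrambled point, and for Acta1 and Myh7b the hairpin B point lies above it.

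Among 15 genes of the Z-disc, of maturation and of stress signalling, 1 was 2-fold lower in both hairpins (0.469% of all loci). The list median was -0.44 with hairpin A and -0.17 with hairpin B. The 1 gene was Popdc2, a membrane protein of cardiac cells, at 5.21, 1.07 and 0.0373 FPKM. The natriuretic peptide Nppb read 2.17, 0.202 and 1.24 FPKM and Ldb3, which links actinin at the Z-disc, 5.29, 1.96 and 3.44 FPKM, and both were lowest with hairpin A. Cryab, a small heat shock protein, stood at 8.84, 8.31 and 14 FPKM, above the control with hairpin B. A further 13 genes of this list were under the filter on low values, of which 8 were below the control in both hairpins and 4 were 2-fold lower in both. The 4 were Csrp3, Hspb7, Smpx and Trim55, of which the muscle LIM protein Csrp3 read 6.05, 0.837 and 0.103 FPKM. Since the filter asks for 1 FPKM in at least 2 libraries, it leaves out a gene that reaches that level in the control of day 9 alone. Of 5 thick filament genes under the filter none was 2-fold lower in both, and titin, Ttn, read 1.34, 0.278 and 0.284 FPKM while Myom2 read 0.151, 0.123 and 0.857.

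Among 16 calcium handling and ion channel genes, 3 were 2-fold lower in both hairpins (0.469% of all loci). The sodium-calcium exchanger Slc8a1 (chromosome 17, 81772444-82137717) read 5.75, 1.80 and 0.0855 FPKM. Hrc, a calcium binding protein of the sarcoplasmic reticulum, read 7.64, 2.56 and 2.79 FPKM, so the hairpins were level. The potassium channel Kcnj5 read 1.88, 0.380 and 0.0998 FPKM, where the hairpin values are under 3 reads on 1 kb. More abundant members were not 2-fold different in both. The calcium pump Atp2a2 stood at 68.7, 64.0 and 105 FPKM and the gap junction gene Gja1 at 139, 200 and 109. Over the 15 genes of cardiac metabolism that were tested none was 2-fold different in both hairpins. With hairpin B alone 5 were 2-fold higher and 3 were 2-fold lower, where 9.76% and 13.3% of all loci were. The higher ones included the fatty acid binding protein Fabp3, at 66.2, 80.6 and 408 FPKM, and the lactate dehydrogenase Ldhb, at 184, 152 and 657. A further 7 metabolism genes were under the filter on low values, of which 5 were below the control in both hairpins. Among them Cox6a2 was 2-fold lower in both, at 2.16, 0.511 and 0 FPKM.

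Cardiac regulators were below the control in both hairpins in 25 of 33 genes tested, where 34.3% of all loci were. Most differences with hairpin A were small, with a list median of -0.41 against -1.69 with hairpin B. By the size rule 23 genes were lower with hairpin B (13.3% of all loci) and 2 with hairpin A (0.758% of all loci). Those 2 were Hand2, a transcription factor of the forming right ventricle (chromosome 8, 59799779-59803314), and Kdr, a receptor for VEGF on early cardiac and vascular mesoderm. Hand2 read 7.62 FPKM in the control, 1.95 with hairpin A and 0.0703 with hairpin B, and Kdr read 12.6, 5.33 and 0.354 FPKM. Tbx20 stood at 2.70, 1.03 and 0.454 FPKM and Mef2c at 5.29, 2.69 and 0.184. Both were lower in each hairpin, with hairpin A by less than 2-fold in (FPKM + 1). Nkx2-5 read 0.678, 0.265 and 0.270 FPKM, where the hairpin values are under 3 reads on 1 kb. Meis2, a homeodomain factor and the most abundant regulator in the control, read 20.1, 16.5 and 2.93 FPKM. Tbx3 went the other way with hairpin B, at 2.71, 2.83 and 25.4 FPKM.

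The scatter of both differences places these lists among all loci. With hairpin A the sarcomere and blood genes lie to the left of most loci, and with hairpin B the pluripotency genes lie at the top.

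**Figure D2:**
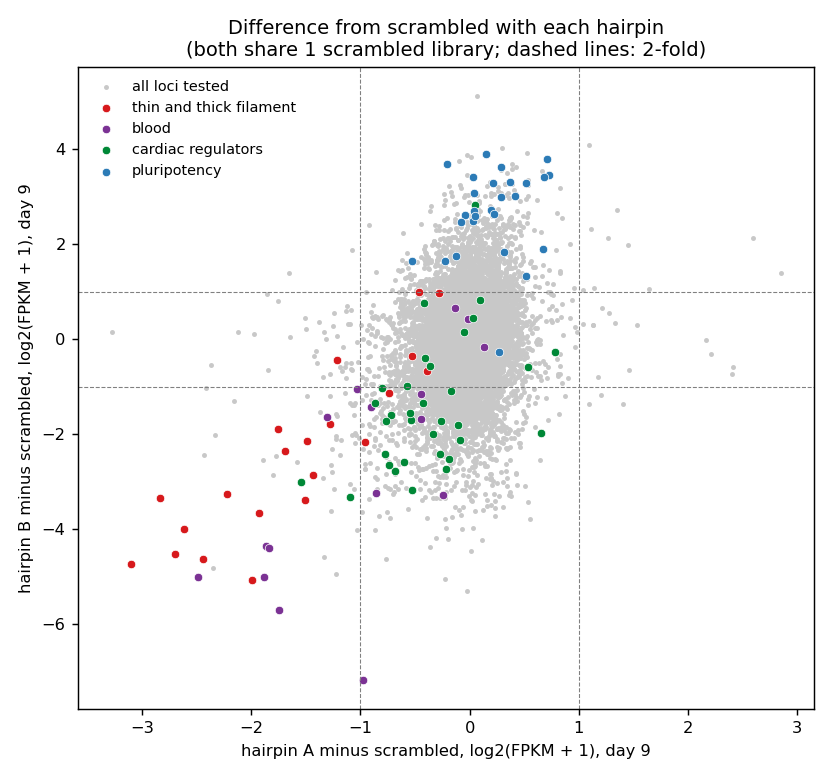
Difference from the control at day 9 in log2(FPKM + 1), with hairpin A on the horizontal and hairpin B on the vertical axis, 1 point per locus tested (13858). Both axes share 1 scrambled library, so the cloud's slope is not a measure of agreement, and the 65 loci in the lower left beyond the dashed 2-fold lines include 14 of the 21 thin and thick filament genes.

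Blood genes were also low in both hairpins. Of 16 tested, 13 were below the control in both and 7 were 2-fold lower in both, where 34.3% and 0.469% of all loci were. The list median was -0.94 with hairpin A and -2.46 with hairpin B. The embryonic alpha-like globin Hba-x (chromosome 11, 32176599-32178113) read 51.0 FPKM in the control and 14.5 with hairpin A, and was listed at 0 with hairpin B. Hbb-bh1, the embryonic beta-like globin, stood at 142 and 72.0 FPKM and at 0, and Hbb-y at 31.2 and 7.71 FPKM and at 0. Hairpin A was thus lower than the control for each, and hairpin B was listed at 0 for these 3 genes. Hba-a1 read 37.4, 5.83 and 0.199 FPKM at the higher of its 2 loci. Hba-a1 and Hba-a2 are near-identical copies, as are some Hbb genes, and their reads can be split between copies, so single values are uncertain. Alas2, the heme synthesis enzyme of red cells, read 3.60, 0.861 and 0.489 FPKM. Gata1, the regulator of the red cell lineage, was not lower with hairpin B, at 0.670, 0.654 and 1.25 FPKM. Kit, a receptor of blood progenitors that stem cells also express, read 13.8, 12.5 and 22.2 FPKM. Pf4 and Clec1b, genes of platelets that are on no list, were named after their values were seen. Pf4 read 7.21, 2.42 and 0.185 FPKM at day 9 but 0.209, 1.56 and 2.64 at day 0, and Clec1b read 11.2 and 4.08 FPKM and 0 at day 9.

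Endothelial genes were below the control in both hairpins in 19 of 25 (34.3% of all loci), and 4 were 2-fold lower in both (0.469% of all loci). These were Kdr, the receptor kinase Tie1 at 4.90, 1.46 and 0.194 FPKM, the adhesion molecule Icam2 at 7.25, 2.85 and 0 FPKM, and the tight junction gene Cldn5 at 13.2, 5.87 and 2.12 FPKM. The stem and vessel antigen Cd34 read 30.8, 16.5 and 0.980 FPKM, and the cadherin Cdh5 8.52, 5.15 and 0.189. Pecam1, which undifferentiated mouse stem cells also express, read 11.2, 9.06 and 38.5 FPKM and was highest with hairpin B, the library with the highest pluripotency level. The part of that library's stem cell genes in this value was not tested. Eng read 10.6, 1.67 and 11.9 FPKM, but overlaps Fpgs, described below.

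Mesenchymal and matrix genes were lower mainly with hairpin B. Of 13 mesenchymal genes, 11 were below the control in both hairpins, where 34.3% of all loci were. With hairpin A 1 was 2-fold lower and with hairpin B 10, where 0.758% and 13.3% of all loci were. The 1 gene with hairpin A was the homeodomain factor Prrx2, at 19, 8.45 and 3.94 FPKM. Vimentin, Vim, read 387, 251 and 109 FPKM, and the cadherin Cdh11 55.4, 40.2 and 5.35. Of 14 collagen genes tested the fibrillar collagen Col3a1 (chromosome 1, 45368382-45406550) was 2-fold lower in both, at 65.1, 27.2 and 1.15 FPKM. Of 3 collagen genes under the filter on low values, Col9a1 was 2-fold lower in both, at 3.09, 0.728 and 0.0581 FPKM. Of 23 other matrix genes the proteoglycan Lum was, at 27.6, 10.3 and 0.191 FPKM. Versican, Vcan, read 123 FPKM and 106 with hairpin A but 11.3 with hairpin B, whereas fibronectin, Fn1, read 79.5, 76.1 and 190.

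Smooth muscle genes were not 2-fold different in both hairpins in any of 14 tested. Acta2 read 88.4, 46.4 and 69.0 FPKM, Tagln 41.9, 34.2 and 71.2, and Cnn1 4.01, 1.24 and 3.48, so each was lowest with hairpin A. Myh11, the defining smooth muscle myosin, was under the filter on low values, at 0.340, 0.385 and 0.569 FPKM. Summed over the list, levels were 455.8, 365.8 and 427.6 FPKM. Of 5 epicardial genes, Tcf21, a basic helix-loop-helix factor of epicardium and heart fibroblasts (chromosome 10, 22537078-22539934), was 2-fold lower in both, at 3.40 and 0.568 FPKM and 0 with hairpin B. Wt1 read 1.05, 0.282 and 2.57 FPKM and Upk3b 1.51, 0.318 and 0.467.

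Signalling genes were mixed. Of 21 Wnt pathway genes, 1 was 2-fold lower in both: the ligand Wnt2 (chromosome 6, 17938939-17980445), expressed in early heart progenitors, read 4.50 and 0.610 FPKM and 0 with hairpin B. With hairpin B 13 of the 21 were 2-fold lower, where 13.3% of all loci were. The inhibitor Dkk1 was 1 of them, at 44.5, 48.2 and 1.44 FPKM, where hairpin A was not below the control. Of 17 BMP and TGF-beta genes none was 2-fold lower in both, and 10 were below the control in both (34.3% of all loci). Among them were the BMP target genes Id1, at 95.7, 58.0 and 23.4 FPKM, Id2, at 196, 130 and 21.6, and Id3, at 204, 160 and 21.2. The ligand Bmp4 read 18.9, 10.7 and 9.05 FPKM. Each of these 4 genes was lower with hairpin A by less than 2-fold. Retinoic acid genes had medians of -0.07 with hairpin A and -0.99 with hairpin B, for example Crabp2 at 170, 200 and 16.9 FPKM.

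Several loci outside the lists were among the 25 with the largest smaller drop. Sh3bgr, a gene expressed in heart and skeletal muscle, read 14.5, 3.44 and 1.15 FPKM. Gpsm1, a regulator of G protein signalling, read 16.2, 2.41 and 3.28 FPKM, but it overlaps Dnlz, which read 11.2, 23.0 and 9.92. Mecom, which encodes a zinc finger factor of blood stem cells, has 2 loci in the table. The one on chromosome 3 at 30135490-30408409 read 6.20, 0.936 and 0.246 FPKM, while that at 29850225-29912126 read 0.924, 4.31 and 0.237, so hairpin A differed in opposite directions at the 2 loci. Snhg9, a small nucleolar RNA host gene, read 4.40 FPKM and was listed at 0 in both hairpins, while Snora78, which overlaps it, read 14.7, 9.57 and 29.3. Of the 65 lower loci, 15 overlapped another named locus, as did 2085 of the 13858 loci tested. The sources used here give neither the annotation nor the use of strand, so reads of overlapping loci cannot be told apart.

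The 10 higher loci were of another kind: 9 of 10 overlapped another named locus. Nudt17 read 2.48 FPKM in the control, 24.2 with hairpin A and 8.23 with hairpin B, while the overlapping Pias3 read 11.1, 3.26 and 13.0. Tesk1 read 0.104, 5.67 and 3.82 FPKM where its overlapping partner Cd72, which is under the filter on low values, read 17.3, 0.405 and 0.0684. Fpgs read 4.84, 13.9 and 37.5 FPKM, against 10.6, 1.67 and 11.9 for Eng. In these 3 pairs the partner was lower with hairpin A where the named locus was higher. Tiam2 read 1.05, 5.38 and 3.30 FPKM and its partner Tfb1m, itself among the 65, 24.3, 3.74 and 11.4. Iqcj-schip1 read 2.78, 8.08 and 15.7 FPKM and Schip1 21.7, 9.41 and 36.1. Anxa9 read 2.22, 6.09 and 5.85 FPKM over Fam63a at 10.7, 7.33 and 22.9. Lin7b, which overlaps Mtag2, read 0.369, 1.82 and 1.83 FPKM. Gm2058, at 0.809, 2.91 and 8.11 FPKM, and Gm5801, at 0.192, 1.55 and 19.3, overlap Ube2h and Ube2j2, which read 24.2, 22.7 and 13.1, and 12.2, 12.0 and 10.1.

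The 1 higher locus without such a partner was Terc, the RNA template of telomerase (chromosome 3, 96218359-96218756). It read 0.461 FPKM in the control against 3.00 and 4.78 with hairpins A and B, so both were above it, at a mean log2 difference of 1.72 ± 0.46 (SE; adjusted p = 0.875 by limma). At day 6 it was lower in both hairpins, at 1.95, 0.564 and 1.19 FPKM. The order at day 9 was thus not seen 3 days earlier, and the control value of day 9 is under 3 reads for a locus of this length. None of the 10 was on a gene list.

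The 10 loci furthest above the control with hairpin A, whatever their level with hairpin B, included the imprinted genes Mest and Nnat. Mest (chromosome 6, 30688062-30698457), a gene expressed from the paternal copy in mesoderm, read 6.88 FPKM in the control, 40.8 with hairpin A and 3.76 with hairpin B. Hairpin A was the highest of the libraries at each day for Mest, at 5.81 FPKM against 3.00 and 2.80 at day 0 and at 22.3 against 3.64 and 2.20 at day 6. Nnat (chromosome 2, 157385845-157388255), a paternally expressed gene of the nervous system, read 5.05, 26.1 and 5.03 FPKM. H19, a maternally expressed noncoding RNA, read 3.67, 10.7 and 4.91 FPKM. Hairpin A stood alone for these 3 genes, while hairpin B was not 2-fold from the control. The other 12 genes of the imprinted list that were tested were not 2-fold different in (FPKM + 1) with hairpin A. Igf2 read 614, 421 and 195 FPKM, Dlk1 25.7, 12.7 and 3.02, and Grb10 287, 267 and 46.5. Both hairpins were below the control in 10 of the 14 imprinted genes, and in 34.3% of all loci. Others far above the control with hairpin A alone were Mbd6, at 0.936, 9.29 and 0.286 FPKM, and BC002163, at 4.89, 26.3 and 3.73, both overlapping another locus. Furthest below the control with hairpin A was Pcp2, which overlaps another locus. It read 8.70 FPKM in the control, was listed at 0 with hairpin A and read 9.87 with hairpin B.

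With hairpin B alone, genes of undifferentiated stem cells were high. Of the 27 pluripotency genes, 26 were 2-fold higher with hairpin B and 0 with hairpin A, where 9.76% and 0.188% of all loci were. The list medians were 2.72 and 0.22. Both hairpins were above the control in 20 of the 27, where 22.4% of all loci were. Pou5f1 read 98.8, 102 and 602 FPKM, Zfp42 46.2, 53.8 and 462, and Esrrb 11.8, 12.0 and 136. Utf1, a chromatin protein of stem cells, read 19, 21.2 and 298 FPKM, and Klf2 9.77, 8.31 and 137. For each of these, hairpin A lay next to the control and hairpin B far above both. Furthest above the control was the predicted gene Gm6793, at 1.17, 1.27 and 74.8 FPKM. The Nodal inhibitors Lefty1 and Lefty2 were high as well, at 14.9, 15.8 and 115 FPKM and at 7.03, 11.7 and 92.2, while the streak gene T was low, at 23.8, 35.4 and 0.814.

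Some genes of other lineages were low with hairpin B where hairpin A was less than 2-fold from the control. Shh, a ligand of notochord and floor plate, read 47.6, 46.8 and 0.230 FPKM, and the plasma protein gene Vtn 46.1, 39.4 and 0.417. Foxa2, of definitive endoderm and floor plate, read 29.5, 32.2 and 1.52 FPKM. Of 22 neural genes, 13 were 2-fold lower with hairpin B and 0 with hairpin A, where 13.3% and 0.758% of all loci were. Sox1 read 12.0, 20.5 and 3.02 FPKM, with hairpin A above the control. Of 19 endoderm and yolk sac genes, 11 were 2-fold lower with hairpin B and 1 with hairpin A, beside the same shares of all loci. That 1 was Afp, at 21.1, 9.78 and 0.379 FPKM. With hairpin A the median was 0.12 for the neural list and -0.16 for endoderm, against -1.76 for the thick filament list. The plot of list medians sets these side by side.

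**Figure D3:**
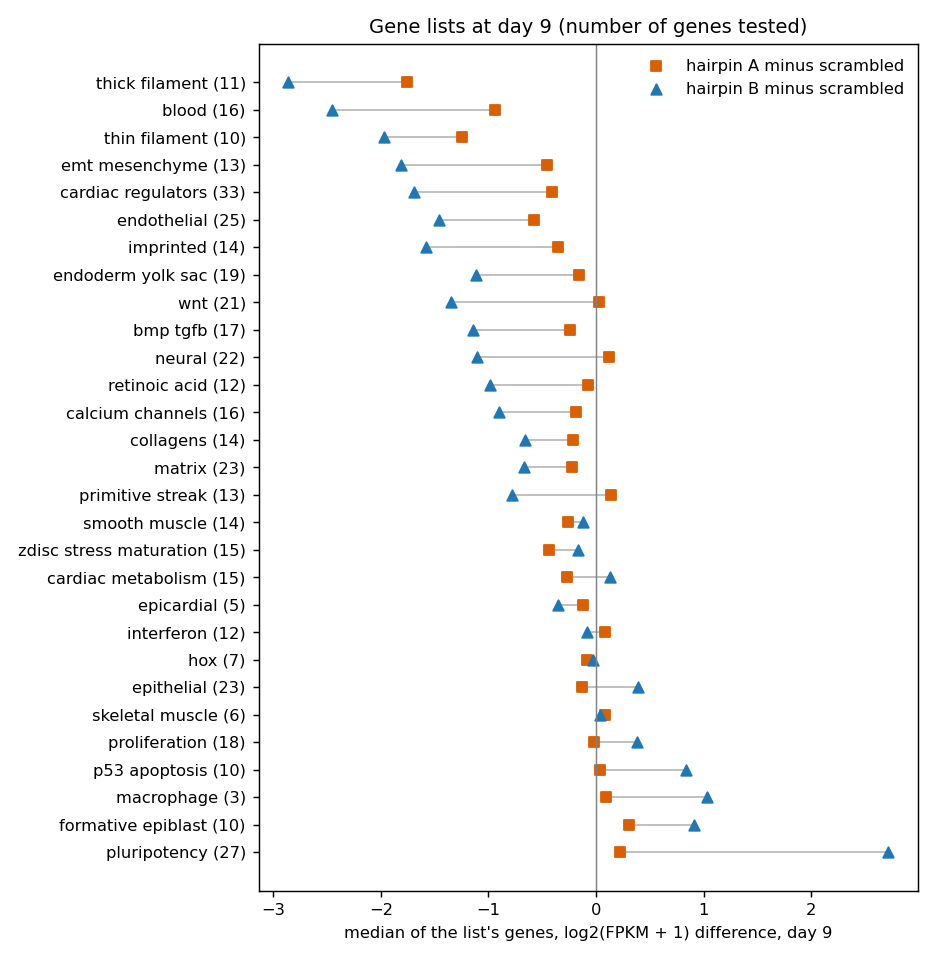
Median log2(FPKM + 1) difference from the control at day 9 for each of 29 gene lists, with the number of genes tested in parentheses, hairpin A as squares and hairpin B as triangles. With hairpin A the thick filament (-1.76), thin filament (-1.25) and blood (-0.94) lists lie lowest, and with hairpin B the pluripotency list lies highest, at 2.72.

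Libraries of the earlier days, which the 2-fold rule of day 9 did not use, showed when these loci parted. The filter on low values did count them, so a locus could pass it through a high control value at day 6. Without that filter, 61 of 78 lower loci were below the control in both hairpins at day 6. At day 6, 55 of the 65 lower loci were below the control in both hairpins, where 33.6% of all loci were. By the 2-fold rule 22 of the 65 were lower in both at day 6, where 0.512% of all loci were, and the medians over the 65 were -0.65 with hairpin A and -1.33 with hairpin B. At day 0, 15 of the 65 were below the control in both hairpins, where 29.9% of all loci were, and both medians were 0.00. Since the cultures behind the libraries are not stated, day 6 may not be a separate depletion.

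Single genes parted at different days. Tnni1 was already apart at day 6, at 11.5 FPKM in the control against 0.510 and 0.447, and so were Tnnt2, at 4.32, 0.933 and 0.408, and Hand2, at 9.42, 1.62 and 0.0378. Myl7 read 22.3, 5.66 and 1.59 FPKM at day 6. Actc1 was not apart at day 6, at 5.45, 7.86 and 4.95 FPKM, with hairpin A above the control. Tnnc1, at 35.1, 31.7 and 13.4 FPKM, and Myl3, at 12.7, 15.9 and 4.42, were lower with hairpin B than in the control at that day, and less than 2-fold apart with hairpin A. Hba-x was at its highest at day 6, at 103 FPKM against 17.2 and 0.389. For Col3a1, which read 1.64, 0.980 and 0.918 FPKM at day 6, most of the level in the control appeared between days 6 and 9.

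**Figure D4:**
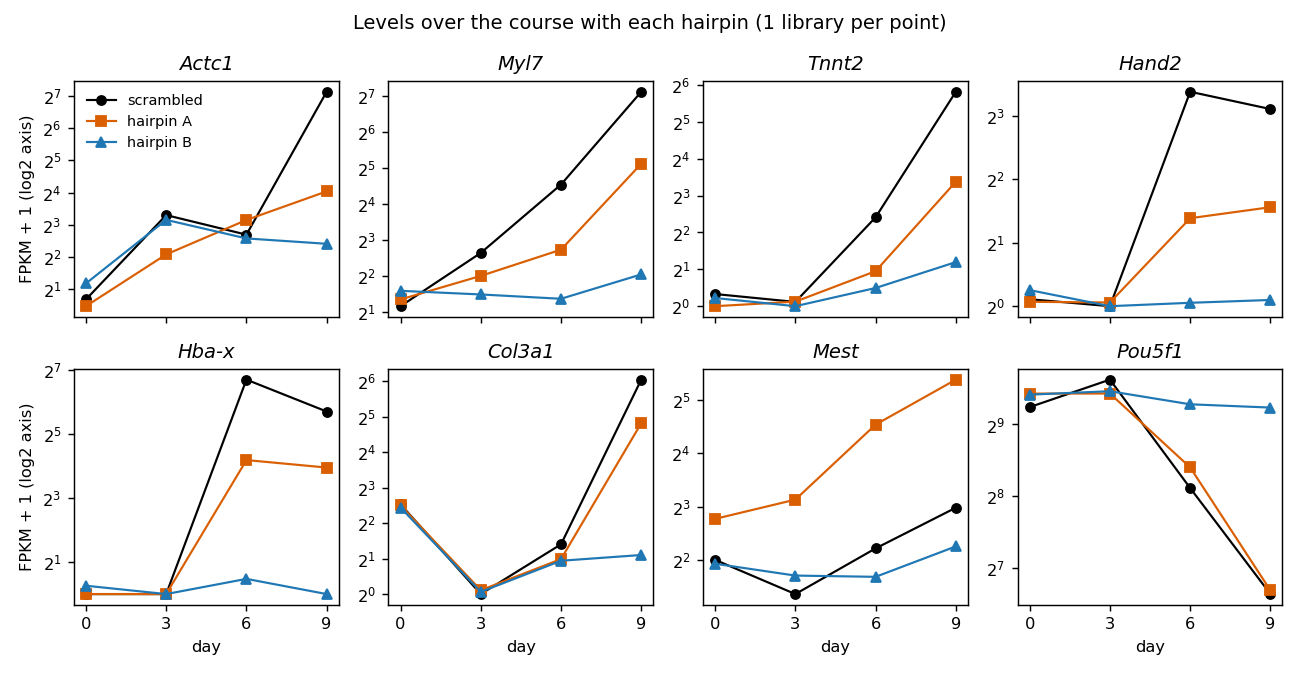
FPKM + 1 on a log2 axis at days 0, 3, 6 and 9 for 8 genes in the control (scrambled, black), hairpin A and hairpin B libraries, 1 library per point and no error bars. Tnnt2, Myl7, Hand2 and Hba-x are apart at day 6, Actc1 and Col3a1 at day 9, Mest is highest with hairpin A throughout, and Pou5f1 stays high with hairpin B alone.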

How the data were processed

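Messenger RNA of the 3 day 9 libraries was sequenced with the 9 other libraries of the time course. The authors deposited FPKM per locus, aligned and quantified on build mm9 by Bowtie 0.12.7, TopHat 1.14 and Cufflinks 1.3.0 according to the submitters' processing notes. Neither the annotation version nor the use of strand is given in the sources used here. No counts were in that table, and depth was estimated from the steps of low values at olfactory receptor loci, where 20 of 38, 15 of 25 and 41 of 67 values came within 0.1 of whole reads in the control (scrambled) library and those of hairpins A and B.

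Loci of 300 bp or more that reached 1 FPKM in 2 or more libraries were tested with limma 3.58.1 (eBayes with a mean trend) in R 4.3.3 on log2(FPKM + 1). The fit held 12 libraries in 8 groups (scrambled or hairpin at each day) with 4 residual degrees of freedom, and each day's single scrambled library was taken to vary as the hairpin pairs do. P-values were two-sided and adjusted by the Benjamini-Hochberg method over 13858 loci, with a threshold of 0.05. The script was tested on simulated data. Counts by size and list medians carry no p-value.

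The members and the 29 gene lists, of 572 entries, were chosen with earlier results of these data known. Named were the loci 2-fold higher in both hairpins, the 25 lower loci with the largest smaller drop, list members 2-fold in both or among the 4 highest of a list, and the 10 largest differences up and down of each hairpin. Other list members and day 6 examples were named after their values were seen. Alternatives were another pseudocount, no filter, short loci kept, scaling by median ratio, the deposited quantification status, other fits, a block for hairpin and each hairpin left out.

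Promoters came from a RefSeq table on GRCm38.p6, matched by symbol for 15 of 15 genes, and no mm9 coordinates were read from it. The other table of the series was not used here, 25 entries whose names had become dates were not named, and Python 3.11.15 with pandas 2.3.3 made the summaries.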

Additional observations from a re-analysis of the deposited data

Results flagged for a closer look

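At 5 loci the hairpins were each 2-fold or more from the control at day 9 but in opposite directions. The control is the scrambled library. With 1 library per hairpin none of these differences was tested. Sst, which encodes somatostatin, read 2.94 FPKM in the control, 9.42 with hairpin A and 0.541 with hairpin B, and hairpin A exceeded hairpin B by 2.76 on the log2 scale. The connexin gene Gjb2 read 3.01, 7.57 and 0.552 FPKM, a difference of 2.47 between the hairpins. The homeobox gene Msx3 read 1.55, 4.87 and 0.137 FPKM, a difference of 2.37. The opposite order was found for Fam113b, at 6.13, 1.27 and 17.9 FPKM, a difference of -3.06, and for 1700007E06Rik, at 2.06, 0.447 and 10.3 FPKM, a difference of -2.97.

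Among the loci 2-fold lower in both hairpins at day 9, 2 had been 2-fold higher in both at an earlier day. Pf4, a platelet chemokine, read 0.209, 1.56 and 2.64 FPKM at day 0 in control, A and B libraries, and its mean difference at day 9 minus that at day 0 was -3.36 ± 0.85 (SE), which did not pass in limma (adjusted p = 0.999). Snhg9 was listed at 0 in the control at days 0 and 3, where the hairpins read 4.93 and 3.84 FPKM and 8.21 and 11.5 FPKM. Its day 9 difference minus that of day 0 was -4.85 ± 1.14 (SE), which did not pass in limma (adjusted p = 0.999). Minus that of day 3 it was -5.86, a difference that was not tested.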

How the results depend on the processing

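With a pseudocount of 0.1, the loci 2-fold in both hairpins numbered 147 lower and 67 higher. Of the 147, 112 were below scrambled in both at day 6. Loci 2-fold with hairpin A, shared ones included, numbered 313 lower and 105 higher. Keeping loci under 300 bp gave 27 higher in both, and 165 lower and 66 higher with hairpin A. Restricting to loci with an OK status at day 9 gave 5 higher in both. Leaving out a hairpin gave from 105 to 1848 lower and from 26 to 1353 higher. For the day 9 effect, limma called 162 lower and 4 higher without the filter, loci near 0 among them, and 4 lower and 1 higher with short loci kept. Leaving out a hairpin library of day 9 gave from 0 to 202 lower and from 0 to 80 higher. For day 9 minus day 0, limma called 139 lower and 86 higher without the filter and 4 lower and 3 higher with short loci kept, and leaving out a hairpin gave from 1 to 15 lower and from 0 to 14 higher. The cause of these changes was not tested. A limma fit without a hairpin library of day 9 set 1 library against 1 at that day. Its spread came from the hairpin pairs of days 0, 3 and 6, so its calls have no replication at day 9. The median absolute log2 difference between the hairpins was 0.24, 0.16 and 0.31 at those days, against 0.50 at day 9. The spread in such a fit may thus be too small for day 9. The other settings called 0 loci: pseudocount 0.1, scaling, OK status, eBayes without a mean trend, no day 6 libraries (added after seeing the data), the 3 day 9 libraries alone (run for the day 9 effect) and the replicate block for hairpin, which had 378 loci at an unadjusted p under 0.05 in limma for the day 9 effect and a smallest adjusted p of 0.581. Scaling moved the share of higher loci among those 2-fold with hairpin B from 42.3% to 47.4%. Of 145 list medians under other settings, 134 moved by less than the spread of the hairpins and 2 changed sign. The labels do not say that libraries of 1 hairpin share a culture across days: deviations of the hairpins from their day mean correlated by 0.75 across loci between days 6 and 9 and by -0.16 to 0.35 for the other pairs of days. The median SE in limma was 0.35, from the spread between hairpins. Values under 0.272 to 0.441 FPKM are under 3 reads on 1 kb. For transcripts of 1 kb or less, differences between such values were not detectable at this depth. Longer transcripts have more reads at the same FPKM.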

Other observations

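Of 18 cell cycle genes, none was 2-fold different with hairpin A or with hairpin B, and the list medians were -0.02 and 0.38. The replication clamp gene Pcna read 496, 575 and 466 FPKM in control, A and B libraries, and the cyclin Ccnb1 188, 204 and 269. Of 10 p53 and apoptosis genes none was 2-fold different with hairpin A, and 3 were 2-fold higher with hairpin B, where 9.76% of all loci were. The list medians were 0.04 and 0.84. Cdkn1a, the cell cycle inhibitor induced by p53, read 86.5, 66.5 and 73.0 FPKM, and the pro-apoptotic gene Bbc3 10.4, 11.1 and 35.1. Interferon response genes had medians of 0.08 and -0.08 over 12 tested, and Isg15 read 2.83, 2.21 and 0.775 FPKM.

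Epithelial genes were not 2-fold different with hairpin A in any of 23 tested, and with hairpin B 5 were higher and 1 lower, where 9.76% and 13.3% of all loci were. The cadherin Cdh1, which stem cells also express, read 47.9, 49.2 and 105 FPKM, and the keratin Krt18 216, 198 and 205. Of 39 Hox genes listed 7 passed the filter on low values, with medians of -0.08 and -0.03, and Hoxb2 read 3.14, 3.60 and 0.300 FPKM. Among 6 skeletal muscle genes none was 2-fold lower in both hairpins, and Tnnt1, the slow skeletal troponin T, read 3.55, 2.71 and 9.77 FPKM.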
